A study of Mus musculus with 24 samples.

Results

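The genes described are 10 genes of the Polycomb repressive system, chosen by symbol: the PRC2 genes Ezh1, Ezh2, Eed, Suz12 and Jarid2, the PRC1 genes Bmi1, Ring1, Rnf2 and Cbx7, and Asxl1 of the deubiquitinase complex PR-DUB. All 10 were found among the 27179 gene identifiers of the count table, and all 10 passed the filter on low counts in every comparison. Poly(A) RNA was sequenced from 3 sorted bone marrow populations of 4 Phf6-deleted and 4 control mice, 1 mouse of each kind from each of 4 litters, giving 6 groups of 4 libraries. Libraries were assigned to litter and mouse by the replicate number of their titles. The populations were stem cells (HSC), multipotent progenitors (MPP) and a more restricted progenitor set, HPC-1, all sorted from lineage-depleted marrow by cKIT, SCA1, CD150 and CD48. The strain label of both kinds of mice is Phf6lox/Y;Tie2-creTg/+, a floxed X-linked Phf6 allele with a Cre driven in endothelial and haematopoietic cells, so the labels do not say whether controls carried Cre; the mice's age is not given there. SMART-Seq v4 amplification was used for HSC and MPP but a TruSeq Stranded kit for HPC-1, so kit and population cannot be told apart where HPC-1 levels stand beside those of HSC or MPP.

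Polycomb proteins keep genes silent through marks on histones. PRC2 methylates lysine 27 of histone H3 through Ezh2 or Ezh1, which are alternative catalytic subunits, while PRC1 ubiquitinates histone H2A through Ring1 or Rnf2 and reads the PRC2 mark through Cbx proteins such as Cbx7. PR-DUB, with Asxl1, removes the ubiquitin. In blood, Ezh2 is associated with dividing progenitors and Ezh1 with more quiescent cells, Bmi1 and Cbx7 are known for sustaining stem cell self-renewal, and EZH2 and ASXL1 are recurrently mutated in human myeloid disease. Phf6 is a chromatin-associated plant homeodomain protein mutated in human leukaemia, and the study asked how its loss alters these populations.

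The libraries held 9658167 to 27786830 counts. Phf6 itself averaged 56.2 CPM (counts per library total after scaling, a level) in deleted HSC against 217 CPM in control HSC, 55.5 CPM in deleted MPP against 196 CPM in control MPP, and 27.5 CPM in deleted HPC-1 against 116 CPM in control HPC-1. Every deleted library was below every control library of its population. The edgeR adjusted p for Phf6 was 3.29e-05 in HPC-1, 0.00432 in MPP and 0.0211 in HSC, and in HSC it was 0.0606 with the litter as a block and up to 0.253 when 1 library was left out. Slamf1, which encodes CD150, lay at 9.09 to 52.6 CPM in deleted HSC and 52.2 to 86.7 CPM in control HSC, and at no more than 3.46 CPM in any MPP or HPC-1 library. One library stood apart, that of MPP from deleted mouse 3, with 9.339% of its counts in its top 10 genes against 2.948 to 5.083% in the other MPP libraries. The 6 neutrophil and monocyte markers summed to 1217.9 to 8543.8 CPM in deleted HSC and 494.53 to 6294.5 CPM in control HSC, and to 1192.5 to 11126 CPM in deleted MPP and 196.03 to 2358.3 CPM in control MPP. In both populations the highest deleted library was that of mouse 4. The 3 B cell markers summed to 95.4 to 305 CPM in deleted MPP and 41.6 to 106 CPM in control MPP, to 479 to 2205 CPM in deleted HPC-1 and 503 to 1107 CPM in control HPC-1, and to no more than 32.6 CPM in any HSC library. The 3 endothelial markers summed to between 35.9 and 195 CPM over all libraries, through Pecam1 and Emcn, while Cdh5 was at 0 in all HSC and MPP libraries, as were the 2 T cell markers in all HSC libraries. The part of these cell types in the results below was not tested.

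The levels of 2 of the 10 genes, Ezh2 and Ezh1, did not overlap between MPP and HSC of control mice, where those of 15.6% of all genes did not. Their promoter-proximal 150 bases are shown to set these alternative catalytic subunits side by side. They are from RefSeq promoters on GRCm38.p6, at chr6:47595031-47595180 for Ezh2 and chr11:101226464-101226613 for Ezh1, both on the minus strand, read 5′ to 3′ along the gene and ending just before the start of transcription used there. The RefSeq span of the Ezh2 gene runs to 47595270, so the Ezh2 stretch lies within the annotated gene. The span of Ezh1 ends at 101226463, so the Ezh1 stretch lies outside it. Capitals mark the CCAAT box, searched as CCAAT on both strands, so that ATTGG is the same box read from the other strand.
Ezh2: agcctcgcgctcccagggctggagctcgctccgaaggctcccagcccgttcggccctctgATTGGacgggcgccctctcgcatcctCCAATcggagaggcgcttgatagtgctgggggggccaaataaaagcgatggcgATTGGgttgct
Ezh1: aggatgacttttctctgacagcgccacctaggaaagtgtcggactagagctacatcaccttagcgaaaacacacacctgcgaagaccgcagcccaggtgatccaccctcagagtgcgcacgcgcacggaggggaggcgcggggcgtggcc
The Ezh2 stretch holds 3 such boxes and the Ezh1 stretch holds none. Over the full 250 bases before the start, Suz12, Cbx7 and 1 of the 2 Jarid2 windows held 1 box each, and 33.8% of the 32851 promoter windows of the table held at least 1. No share was computed for 3 boxes or for stretches of 150 bases. The Cbx7 window and the other Jarid2 window also lay within the spans of their genes. A search of the same windows for the E2F-type letters TTTCCCGC, TTTCGCGC, TTTGCCGC and TTTGGCGC on both strands found a match in Suz12 alone among the 10 genes, and in 1.86% of all windows. These are matches of letters and not measured binding.

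Levels of different genes were set beside each other per kilobase of gene length. Eed, the PRC2 subunit that binds the methylated histone tail, was the most abundant of the 10 in HSC and MPP, at 117 ± 31.1 CPM per kb in deleted HSC, 108 ± 22.2 in control HSC, 182 ± 107 in deleted MPP and 127 ± 24.8 in control MPP (SD, n = 4 each). In all of these 4 groups its lowest library lay above the highest library of the next gene. Ezh2, Rnf2 and Bmi1 followed, between 35.6 and 55.3 CPM per kb in group mean, and neighbours among these 3 overlapped in their ranges in each group. Cbx7, Ezh1 and Suz12 came next at 16.2 to 27.9 CPM per kb, and overlapped among themselves. Jarid2, a PRC2 accessory subunit, and Asxl1 lay between 8.47 and 10.7 CPM per kb, and Ring1 was lowest in each of the 4 groups, at 5.63 to 7.81 CPM per kb.

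In HPC-1 the order differed. Ezh2 was highest, at 86.1 ± 7.65 CPM per kb in deleted and 82.4 ± 10.2 CPM per kb in control HPC-1 (SD, n = 4 each), with no overlap with the next gene, Suz12, at 54.6 ± 6.39 and 56.1 ± 4.88 CPM per kb in the same groups. Suz12 and Eed overlapped, as did Asxl1 and Rnf2 below them. Jarid2, Cbx7 and Ring1 were lowest and overlapped. Per gene, Suz12 averaged 239 CPM in deleted and 245 CPM in control HPC-1 while it lay between 71.5 and 76.6 CPM in the means of the HSC and MPP groups, and Asxl1 averaged 232 and 225 CPM there while it lay between 59.5 and 63.8 CPM in those groups. Eed went the other way, with 105 CPM in both HPC-1 groups and 222 to 375 CPM in the HSC and MPP groups. Kit and population cannot be told apart in these differences, and no test was made of them.

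**Figure D1:**
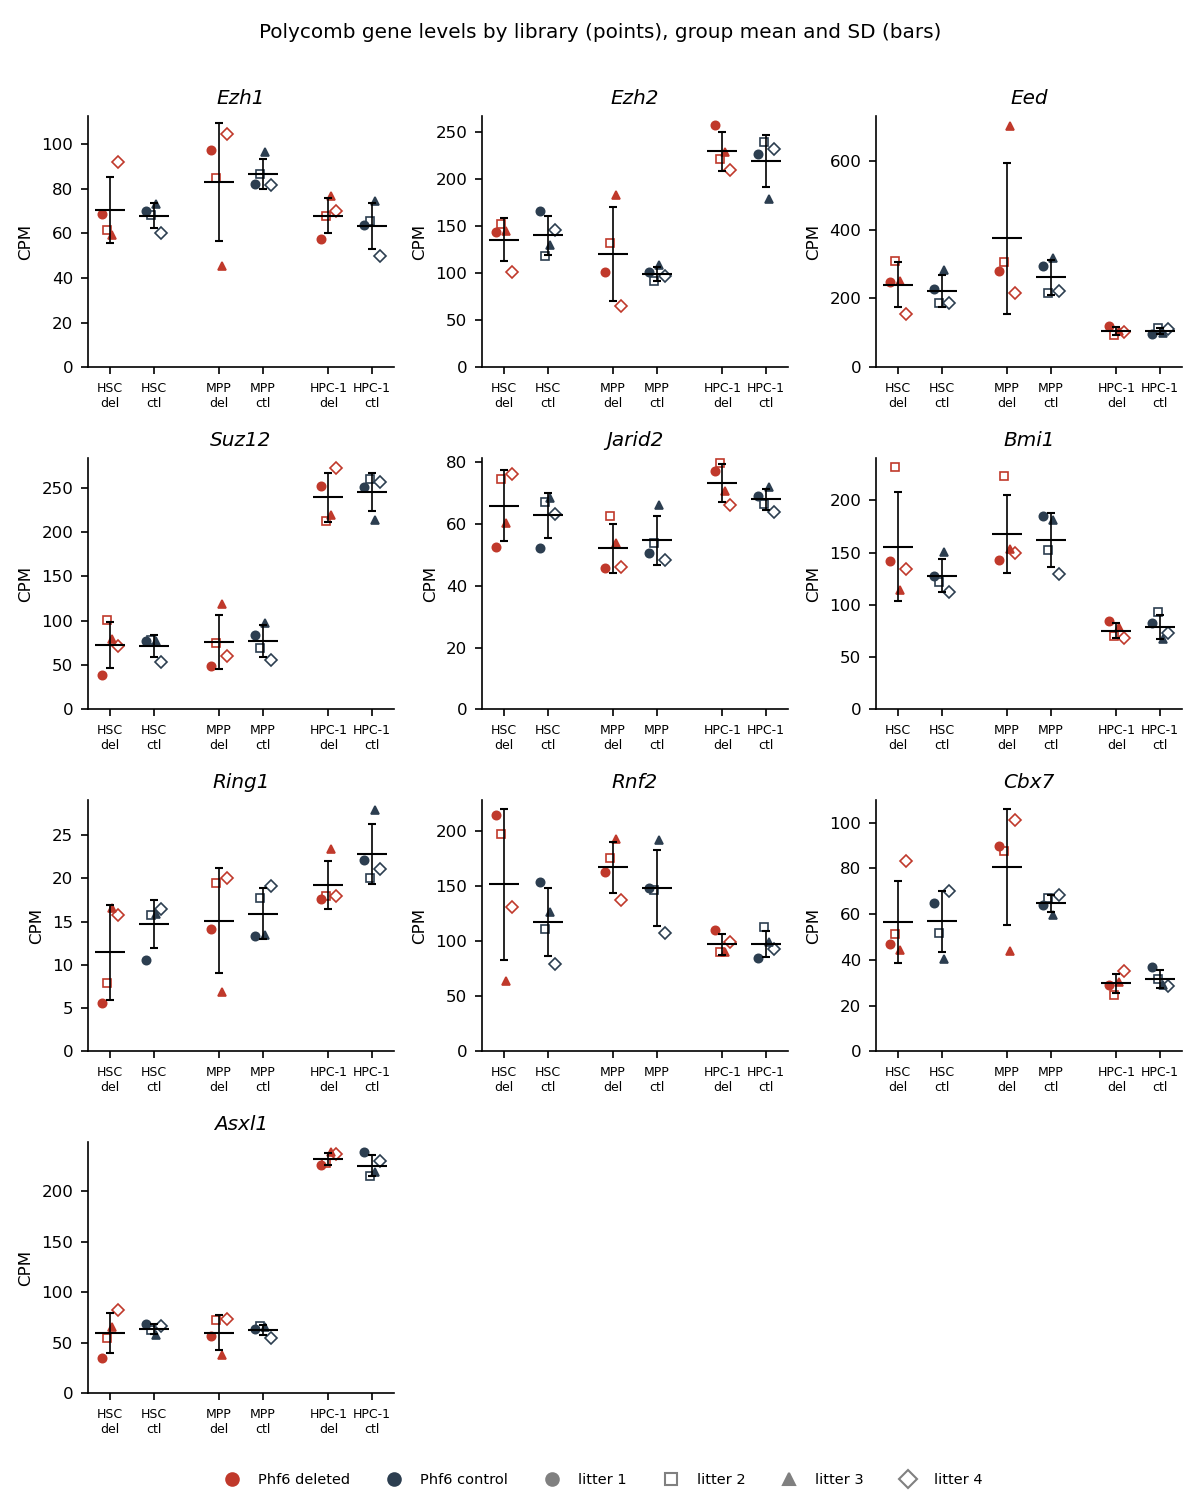
Levels of the 10 genes in CPM (y axis, from 0) in each of the 24 libraries (points; colour gives the genotype, marker shape the litter), with group mean and SD as bars; del is Phf6-deleted and ctl control. Deleted and control points overlap for every gene in every population, and the Eed point at 699 CPM is the MPP library of deleted mouse 3.

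The first question was whether loss of Phf6 changed the expression of these genes. In none of the 3 populations did any of the 10 pass the threshold, an edgeR adjusted p under 0.05. The background was low as well: 1 of 13693 genes was called in HSC (0.0073%), 4 of 13806 in MPP (0.029%) and 9 of 13907 in HPC-1 (0.0647%). Phf6 itself was the 1 gene called in HSC and was among those called in MPP and HPC-1. At an unadjusted p under 0.05, 0 of the 10 were reached in any population, where 4.99% of all genes were in HPC-1, 8.09% in MPP and 3.86% in HSC. Deleted and control libraries overlapped in CPM for all 10 genes in all 3 populations, while they did not overlap for 3.66% of genes in HPC-1, 5.77% in MPP and 3.13% in HSC. The median log2 fold change of the 10 (deleted over control) was 0.00 in HPC-1, 0.02 in MPP and 0.04 in HSC, beside 0.00, 0.02 and 0.01 over all genes. DESeq2 and the fits with the litter as a block also called 0 of the 10.

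Among the catalytic PRC2 genes, Ezh2 was at 144, 153, 145 and 102 CPM in deleted HSC (litters 1 to 4) against 166, 119, 130 and 146 CPM in control HSC. In MPP it was at 102, 132, 184 and 64.8 CPM in deleted against 102, 91.4, 108 and 96.9 CPM in control MPP. Its HPC-1 levels were 258, 221, 230 and 210 CPM in deleted against 227, 239, 179 and 232 CPM in control libraries. The groups overlapped in each population, and deleted MPP spread over the widest range, with the control MPP values inside it. The fitted log2 fold changes of Ezh2 were 0.06 ± 0.10 in HPC-1, 0.28 ± 0.27 in MPP and -0.04 ± 0.18 in HSC (SE, 4 against 4 libraries), and without the MPP library of deleted mouse 3 the MPP value was 0.01.

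The low Ezh2 values of deleted HSC and deleted MPP were both from mouse 4, whose 2 libraries also held the highest neutrophil and monocyte sums, 8543.8 CPM in HSC and 11126 CPM in MPP. They held the lowest sums of 20 S phase genes of their groups as well, 3980.1 CPM in HSC and 1799.9 CPM in MPP. However, every deleted MPP library, at no more than 3075 CPM, lay below the lowest control MPP sum of 3165.9 CPM. That includes the library of deleted mouse 3, whose Ezh2 was the highest of all MPP at 184 CPM. The part of these in the Ezh2 values was not tested.

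Ezh1, the other methyltransferase, was at 68.8, 61.6, 59.4 and 91.7 CPM in deleted HSC against 70.2, 68.2, 73.2 and 60.0 CPM in control HSC. It was at 97.5, 84.6, 45.4 and 104 CPM in deleted MPP against 82.2, 86.8, 96.3 and 81.5 CPM in control MPP. Its deleted MPP libraries thus lay on both sides of the controls, with mouse 3 low and mouse 4 high, the reverse of Ezh2. In HPC-1 it lay between 57.5 and 76.9 CPM in deleted and between 49.8 and 74.4 CPM in control libraries. Its log2 fold changes were 0.10 ± 0.13 in HPC-1, -0.06 ± 0.24 in MPP, which was 0.15 without deleted mouse 3, and 0.05 ± 0.18 in HSC (SE).

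Eed had the largest deletion estimate of the 10 in MPP, and it rested on 1 library. It was at 278, 306, 699 and 217 CPM in deleted MPP against 293, 215, 317 and 222 CPM in control MPP. The libraries of deleted mice 1, 2 and 4 lay within the range of the controls, and the library of deleted mouse 3 lay far above it. The log2 fold change was 0.52 ± 0.33 (edgeR adjusted p = 0.645), and 0.03 without that library. In HSC and HPC-1 the Eed changes were 0.12 ± 0.22 and 0.01 ± 0.10.

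Suz12, which PRC2 needs for its stability, lay at 38.4 to 101 CPM in deleted HSC and 53.3 to 78.4 CPM in control HSC, and at 49.1 to 118 CPM in deleted MPP and 55.7 to 97.4 CPM in control MPP. Its log2 fold changes were -0.04 ± 0.10 in HPC-1, -0.02 ± 0.28 in MPP (-0.31 without deleted mouse 3) and 0.02 ± 0.26 in HSC. Jarid2 had changes of 0.11 ± 0.10, -0.07 ± 0.19 and 0.07 ± 0.18 in the same order of populations.

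Of the PRC1 genes, the paralogous ubiquitin ligase subunits Ring1 and Rnf2 had the largest estimates in HSC, in opposite directions. Rnf2 was at 214, 198, 64.0 and 131 CPM in deleted HSC against 153, 111, 126 and 79.3 CPM in control HSC. Ring1 was at 5.60, 7.92, 16.6 and 15.7 CPM in deleted HSC against 10.6, 15.8, 15.9 and 16.5 CPM in control HSC. The deleted libraries 1 and 2 were thus the highest for Rnf2 and the lowest for Ring1, while the deleted library 3 had the lowest Rnf2 and the highest Ring1 of all HSC. The log2 fold changes were 0.38 ± 0.33 for Rnf2 and -0.36 ± 0.38 for Ring1 (SE), neither called.

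In HPC-1 Ring1 was at 17.6, 17.9, 23.4 and 18.0 CPM in deleted against 22.1, 20.1, 27.9 and 21.1 CPM in control libraries. It was lower in the deleted mouse of each of the 4 litters, although the groups overlapped. The log2 fold change was -0.25 ± 0.17 (edgeR adjusted p = 0.999, unadjusted p = 0.166). Rnf2 in HPC-1 had a change of 0.00 ± 0.11. In MPP, Ring1 had -0.06 ± 0.33, or 0.18 without deleted mouse 3, and Rnf2 0.17 ± 0.20, or 0.10 without it.

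Bmi1, a PRC1 core subunit, was at 142, 232, 114 and 134 CPM in deleted HSC against 127, 122, 150 and 112 CPM in control HSC. It was at 143, 223, 154 and 150 CPM in deleted MPP against 185, 152, 181 and 130 CPM in control MPP. The high value in both populations was from deleted mouse 2, and its HPC-1 library, at 70.1 CPM, was not high. The log2 fold changes of Bmi1 were 0.29 ± 0.22 in HSC, which was 0.03 without deleted HSC library 2, 0.05 ± 0.20 in MPP and -0.07 ± 0.12 in HPC-1.

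Cbx7 was at 89.9, 87.7, 43.7 and 101 CPM in deleted MPP against 64.2, 66.9, 59.7 and 68.2 CPM in control MPP. The deleted libraries 1, 2 and 4 were above all 4 controls and the deleted library 3 was below all of them. The log2 fold change was 0.32 ± 0.24 (edgeR adjusted p = 0.670), and 0.53 without deleted mouse 3 (adjusted p = 0.240). In HSC and HPC-1 it was -0.01 ± 0.25 and -0.09 ± 0.14. Asxl1 had 0.04 ± 0.08 in HPC-1, -0.06 ± 0.22 in MPP (0.12 without deleted mouse 3) and -0.10 ± 0.24 in HSC, and its 8 HPC-1 libraries lay between 215 and 238 CPM.

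**Figure D2:**
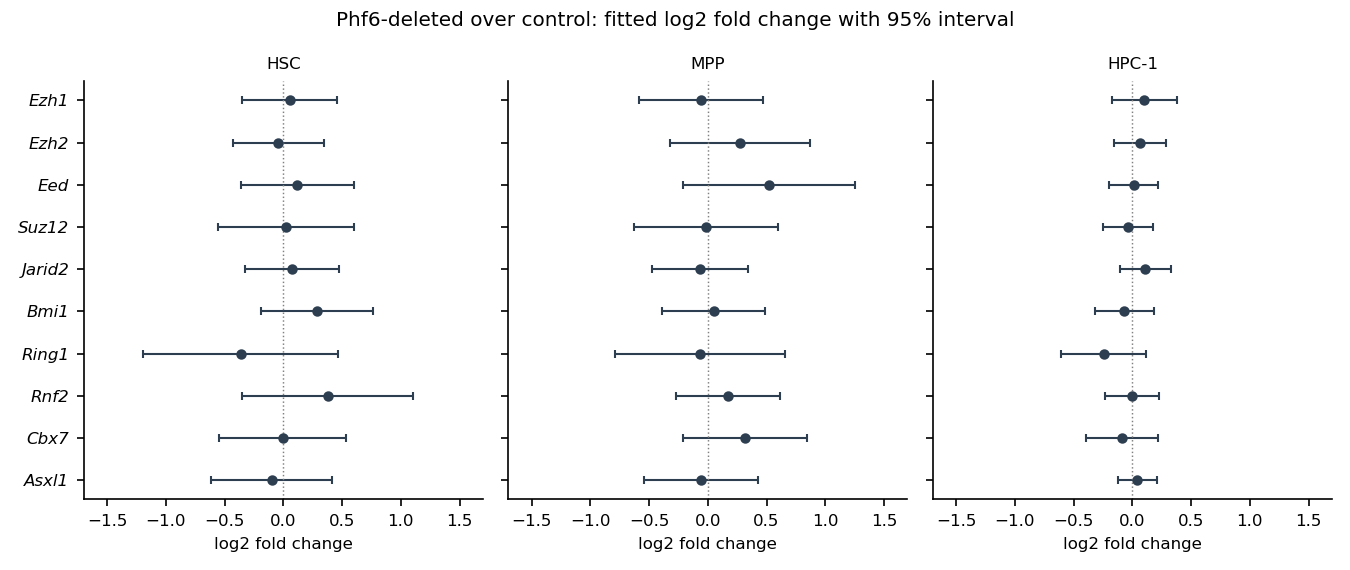
Fitted log2 fold change of each gene, Phf6-deleted over control (x axis), with 95% intervals as bars, in HSC, MPP and HPC-1 (panels). All 30 intervals include 0, and those of HPC-1 are the narrowest.

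A p that misses the threshold does not show that expression was the same, so the intervals bound what could have been missed. In HPC-1 the 95% intervals of the 10 genes lay between -0.61 (Ring1) and 0.38 (Ezh1) on the log2 scale, folds of 0.657 and 1.30. In HSC they lay between -1.19 (Ring1) and 1.10 (Rnf2), folds of 0.437 and 2.15, and in MPP between -0.79 (Ring1) and 1.26 (Eed), folds of 0.578 and 2.39. The coefficient of variation over the 8 libraries of a population had a median over the 10 genes of 10.2% in HPC-1, 23.5% in MPP and 24.3% in HSC. The highest was that of Eed in MPP at 50.1%, and the lowest that of Asxl1 in HPC-1 at 3.85%.

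The deletion effects were then compared between populations through the interaction of genotype and population. None of the 10 genes differed between MPP and HSC, HPC-1 and HSC, or HPC-1 and MPP, and edgeR called 0 genes of the whole table in each of the 3 tests. At an unadjusted p under 0.05, 0 of the 10 were reached, beside 2.86%, 3.46% and 4.48% of all genes in the same order, and DESeq2 called 2, 11 and 7 genes of the table and 0 of the 10. Eed had the largest difference of effects, 0.40 ± 0.42 between MPP and HSC (95% interval -0.48 to 1.29) and -0.52 ± 0.37 between HPC-1 and MPP. Without deleted MPP library 3 these were -0.09 and -0.02.

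The second question was how the genes differed between MPP and HSC, which shared a library kit and came from the same mice. In control mice Ezh2 was lower in MPP than in HSC. Its level was 102, 91.4, 108 and 96.9 CPM in control MPP against 166, 119, 130 and 146 CPM in control HSC, and the groups did not overlap. The log2 fold change (MPP over HSC) was -0.49 ± 0.13 (SE; 95% interval -0.77 to -0.21; edgeR adjusted p = 0.0321), lower in 4 of 4 mice. With the mouse as a block it was -0.48 (adjusted p = 0.0124). The call ended when HSC library 1 or 4, or MPP library 1, 2 or 4, was left out, with values of -0.39, -0.47, -0.50, -0.45 and -0.47 and adjusted p of 0.0780, 0.0754, 0.0853, 0.106 and 0.0744 in that order.

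Ezh2 was the 1 gene of the 10 called in control mice, where 8.84% of the 13636 genes tested were called, 4.06% higher and 4.78% lower in MPP. With the mouse as a block 3 of the 10 were called, as the count over all genes grew to 2109: Ezh1 and Bmi1 were then called higher in MPP. Ezh1 was at 82.2, 86.8, 96.3 and 81.5 CPM in control MPP against 70.2, 68.2, 73.2 and 60.0 CPM in control HSC, with no overlap. Its log2 fold change was 0.36 ± 0.12 (edgeR adjusted p = 0.107, and 0.0419 with the block). Bmi1 was at 185, 152, 181 and 130 CPM in control MPP against 127, 122, 150 and 112 CPM in control HSC, overlapping as groups but higher in MPP in 4 of 4 mice. Its log2 fold change was 0.35 ± 0.14 (edgeR adjusted p = 0.177, and 0.0348 with the block).

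The median log2 fold change of the 10 was 0.16 in controls, beside -0.01 over all genes. The other 7 genes lay between -0.19 ± 0.15 for Jarid2 and 0.34 ± 0.20 for Rnf2. Eed, at 0.24 ± 0.17, was higher in MPP in 4 of 4 control mice, and Jarid2 lower in 4 of 4, without either being called.

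In deleted mice none of the 10 was called between MPP and HSC, where 1.41% of 13887 genes were. Ezh2 was at 102, 132, 184 and 64.8 CPM in deleted MPP against 144, 153, 145 and 102 CPM in deleted HSC. It was lower in MPP in mice 1, 2 and 4 and higher in mouse 3, whose MPP library stood apart. The log2 fold change was -0.18 ± 0.30 over all 4 mice and -0.45 without deleted MPP library 3. Ezh1 had 0.23 ± 0.28, or 0.45 without that library, and Bmi1 0.10 ± 0.26. The largest estimates were Eed at 0.64 ± 0.36, which was 0.16 without that library, and Cbx7 at 0.51 ± 0.30, which was 0.72 without it. The difference of the Ezh2 change between deleted and control mice is the interaction of the same fit, 0.32 ± 0.33 (95% interval -0.37 to 1.02), which was not called and was 0.04 without that library.

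**Figure D3:**
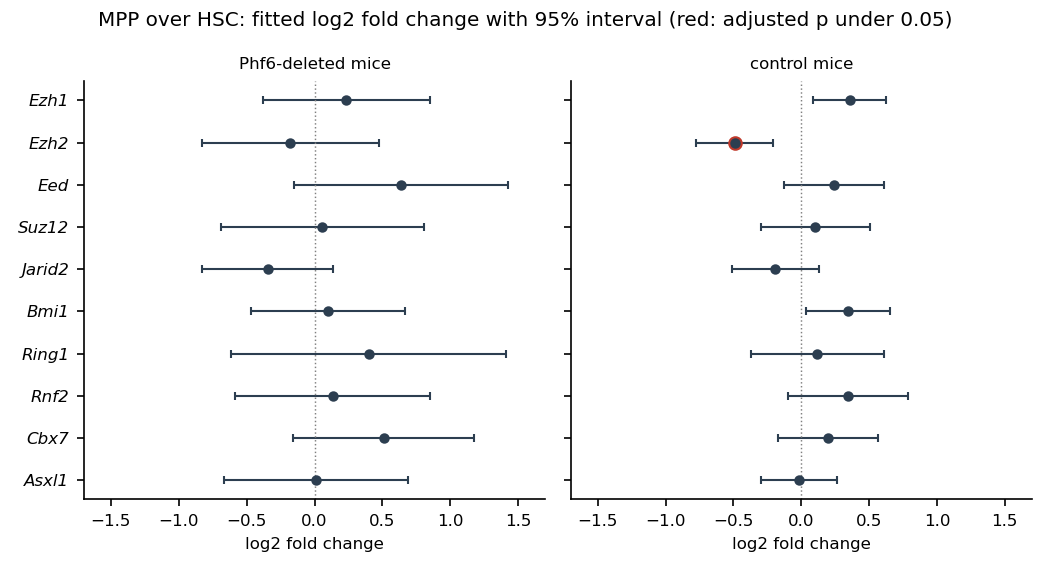
Fitted log2 fold change of each gene, MPP over HSC (x axis), with 95% intervals as bars, in Phf6-deleted mice (left) and control mice (right); a red rim marks an adjusted p under 0.05. Ezh2 in control mice, at -0.49, is the 1 gene so marked, and the intervals are wider in deleted mice.

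Over both genotypes together, 5 of the 10 genes had the same direction between MPP and HSC in at least 7 of the 8 mice, as did 33.9% of 14561 genes. Jarid2 was lower in MPP in 8 of 8 mice, by 0.05 to 0.73 on the log2 scale. It was at 45.8, 62.8, 53.8 and 46.1 CPM in deleted MPP against 52.7, 74.5, 60.3 and 76.4 CPM in deleted HSC, and at 50.5, 53.9, 66.2 and 48.5 CPM in control MPP against 52.2, 67.2, 68.5 and 63.3 CPM in control HSC. Its fitted changes were -0.34 ± 0.22 in deleted and -0.19 ± 0.15 in control mice, not called in either. Ezh2 was lower in 7 of 8 mice, and Ezh1, Eed and Bmi1 were each higher in 7 of 8.

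S phase genes were low beside Ezh2 in MPP. All 20 of a list of S phase genes had lower fitted values in MPP than in HSC in both genotypes, 3 of them called in deleted mice and 15 in controls, where 0.771% of all genes were called lower in deleted mice and 4.78% in controls. With the mouse as a block 7 were called in deleted mice, and DESeq2 called 12. Their summed level was 1799.9 to 3075 CPM in deleted MPP against 3980.1 to 5239.4 CPM in deleted HSC, and 3165.9 to 3508 CPM in control MPP against 4379 to 5425.6 CPM in control HSC. Stem cell genes (Mecom, Hlf, Fgd5 and Procr) summed higher in MPP. The sum was 979 to 1522 CPM in deleted MPP against 370 to 684 CPM in deleted HSC. It was 856 to 1193 CPM in control MPP against 439 to 650 CPM in control HSC. Fitted values of 3 of the 4 were higher in MPP in each genotype, 1 called in deleted and 2 in control mice. Of all genes, 4.06% were called higher in controls and 1.41% in either direction in deleted mice. Some of the other marker genes were lower in MPP, while others were higher. The 2 megakaryocyte markers were called lower in both genotypes and summed to 66.0 to 97.9 CPM in deleted MPP against 583 to 1122 CPM in deleted HSC, and 87.9 to 110 CPM in control MPP against 676 to 1143 CPM in control HSC. All 6 neutrophil and monocyte markers had lower fitted values in control MPP than in control HSC, none called, or 4 with the mouse as a block. In deleted mice 3 of the 6 had higher and 3 lower fitted values in MPP. The 1 B cell marker tested was higher in MPP, with log2 fold changes of 3.32 in deleted mice, called, and 2.56 in control mice, not called. Pecam1 and Emcn, the 2 endothelial markers tested, were higher in MPP in both genotypes, 1 of them called in control mice. The other endothelial marker, Cdh5, had 0 counts in all HSC and MPP libraries and was not tested. The part of the S phase genes and of these markers in the Ezh2 difference was not tested. In bulk libraries, fewer cells of a kind and less RNA per cell cannot be told apart.

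The balance of the alternative subunits was examined as ratios of counts within a library, which need no scaling between libraries. The log2 ratio of Ezh2 over Ezh1 counts was 0.31, 0.08, 0.17 and 0.25 in control MPP against 1.24, 0.80, 0.83 and 1.28 in control HSC. The groups did not overlap, and the means differed by -0.84 (2-sided exact permutation p = 0.0286, the smallest that 4 against 4 can give; 0.143 adjusted over the 10 ratio comparisons). The adjusted value missed the threshold, although the ratio was lower in MPP in 4 of 4 mice. Paired by mouse, the exact permutation p was 0.125, the smallest that 4 pairs can give. In deleted mice the log2 ratio was 0.06, 0.65, 2.02 and -0.69 in MPP against 1.07, 1.31, 1.29 and 0.15 in HSC. Mice 1, 2 and 4 had a lower ratio in MPP and mouse 3 a higher one. The difference of means was -0.45 (exact permutation p = 0.514) and -0.95 without deleted MPP library 3.

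Between deleted and control mice the Ezh2 over Ezh1 log2 ratio differed by -0.09 (HSC), 0.31 (MPP) and -0.04 (HPC-1), with exact permutation p of 0.886, 0.714 and 0.943. The MPP value was -0.19 without deleted library 3. A paired comparison of MPP with HSC over all 8 mice, chosen after these values were seen, gave a mean of -0.64 ± 0.57 (SD), lower in 7 of 8 mice, with an exact permutation p of 0.0391. The change in deleted mice minus that in controls was 0.39 (exact permutation p = 0.514).

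Cbx8 and Cbx7 are alternative chromodomain subunits of PRC1, and Cbx8 had the lowest unadjusted p of the other Polycomb genes for deletion in HSC. Cbx8 was at 8.57, 8.84, 9.16 and 10.02 CPM in deleted HSC against 12.4, 18.1, 13.4 and 24.9 CPM in control HSC, with every deleted library below every control. The log2 fold change was -0.91 ± 0.31 (unadjusted p = 0.0125, edgeR adjusted p = 0.998). The log2 ratio of Cbx8 over Cbx7 was -2.46, -2.53, -2.27 and -3.05 in deleted HSC against -2.39, -1.51, -1.60 and -1.49 in control HSC, lower in the deleted mouse of 4 of 4 litters. The difference of means was -0.83, and the groups overlapped through control library 1. It is given as a description, since Cbx8 was singled out by its p in these libraries. In MPP the ratio differed by -0.35 (exact permutation p = 0.171) and in HPC-1 by 0.08 (exact permutation p = 0.657), the opposite direction.

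Between MPP and HSC of deleted mice the Cbx8 over Cbx7 log2 ratio was -1.79, -2.21, -1.29 and -2.04 in MPP against -2.46, -2.53, -2.27 and -3.05 in HSC. The groups did not overlap and the ratio was higher in MPP in 4 of 4 mice, by a mean of 0.74 (exact permutation p = 0.0286, adjusted 0.143, and 0.125 paired by mouse). In control mice the difference was 0.26 (p = 0.343 by the same permutation test). Over all 8 mice, in a paired comparison also chosen after the values were seen, it was 0.50 ± 0.48 (SD), higher in 7 of 8, with an exact permutation p of 0.0312. The change in deleted mice minus that in controls was 0.48 (exact permutation p = 0.2). Cbx8 itself had log2 fold changes (MPP over HSC) of 1.25 ± 0.29 in deleted mice (edgeR adjusted p = 0.0628; DESeq2 0.00115) and 0.44 ± 0.24 in controls. The values of deleted mice here, and those over all 8 mice, use the deleted HSC libraries by which Cbx8 was singled out. That choice favoured a higher value in MPP, so their p-values are descriptions and not tests.

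**Figure D4:**
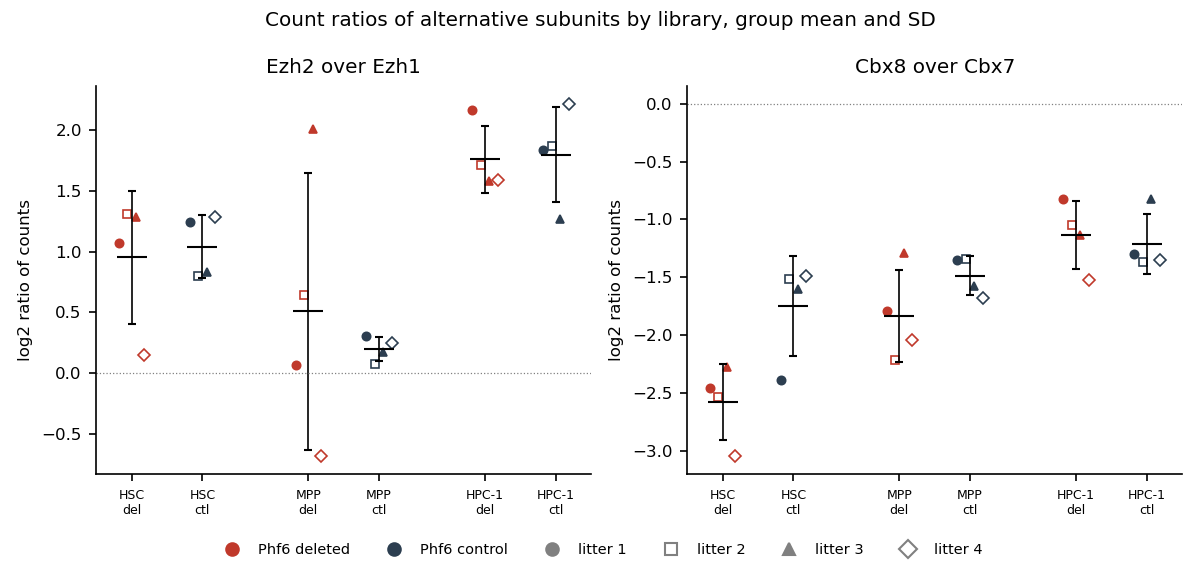
Log2 ratios of counts (y axis) of Ezh2 over Ezh1 (left) and Cbx8 over Cbx7 (right) in each of the 24 libraries (colour for genotype, marker shape for litter), with group mean and SD as bars. Control MPP lie between 0.08 and 0.31 for Ezh2 over Ezh1, below all control HSC, while deleted MPP spread from -0.69 to 2.02.

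A further 41 genes of PRC2, PRC1, PR-DUB and the H3K27 demethylases were examined as the rest of the system. Deletion called none of the genes tested, 40 in HPC-1, 40 in MPP and 39 in HSC, in either direction. Their median log2 fold change was -0.03 in HPC-1, 0.11 in MPP and -0.04 in HSC, beside 0.00, 0.02 and 0.01 over all genes. By list, the median was -0.21 for the other PRC1 genes in HSC, where 14 of 21 were negative. It was 0.36 for the other PR-DUB genes in MPP, where 3 of 8 had an unadjusted edgeR p under 0.05, beside 8.09% of all genes. The medians of the lists otherwise lay between -0.08 and 0.23. In HSC the lowest unadjusted p after that of Cbx8 was for Cbx6, a further chromodomain subunit, at 108 ± 22.6 CPM in deleted and 153 ± 13.8 CPM in control HSC (SD, n = 4 each) with a log2 fold change of -0.50 ± 0.17. In HPC-1 Cbx6 had -0.35 ± 0.13, at 111 ± 21.6 CPM in deleted and 141 ± 14.9 CPM in control libraries, and in MPP -0.19 ± 0.17, at 137 ± 15.2 CPM in deleted and 156 ± 23.1 CPM in control libraries. It was lower in the deleted mouse of 4 of 4 litters in each population. That is given as a description, since Cbx6 was singled out by its p in these libraries. In MPP the lowest p were for Auts2, a subunit of a variant PRC1, at 1.76 ± 0.53 from few counts (262 in deleted and 85 in control MPP summed over 4 libraries each), and for the glycosyltransferase Ogt, at 0.52 ± 0.21. None of these was called by edgeR.

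Between MPP and HSC of control mice 2 of the 40 tested genes were called, beside 8.84% of all genes, both accessory subunits of PRC2 that bind histone H3 methylated at lysine 36. Phf19 was at 8.54, 9.85, 10.4 and 10.8 CPM in control MPP against 14.8, 16.1, 18.4 and 23.8 CPM in control HSC, a log2 fold change of -0.88 ± 0.22 (edgeR adjusted p = 0.0255). Phf1 was at 38.4, 40.0, 41.5 and 50.4 CPM in control MPP against 30.2, 24.4, 30.3 and 19.6 CPM in control HSC, a log2 fold change of 0.70 ± 0.18 (edgeR adjusted p = 0.0287). Both pairs of groups were apart, in opposite directions. Of the 8 fits that left out 1 library, 3 kept the call of Phf19 and 2 that of Phf1, with adjusted p up to 0.0880 and 0.0820. With the mouse as a block Pcgf5, a PRC1 subunit related to Bmi1, was called higher as well, at 0.44 ± 0.16 without the block (edgeR adjusted p = 0.123, and 0.0349 with it). In deleted mice none of 40 was called, where the changes were -1.03 ± 0.46 for Phf19 and 1.10 ± 0.38 for Phf1.

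Of 12 genes that Polycomb is known to silence, between 3 and 6 had enough counts to be tested, depending on the comparison. Lin28b, a foetal RNA-binding protein that blocks let-7 maturation, was at 4.44, 8.23, 7.05 and 7.26 CPM in deleted MPP against 0.06, 0.08, 0 and 0 CPM in control MPP, 453 counts against 2. It rose in deleted MPP by edgeR (adjusted p = 0.00432, and 0.0493 with the litter as a block). For deletion it was the 1 gene of this list that edgeR called, among 4 tested in MPP, 4 in HSC and 5 in HPC-1. Over all genes 0.029% were called in MPP, and the list was chosen with earlier results of these data known. Fitted deletion values of the tested genes were positive for 4 of 4 in MPP, 3 of 4 in HSC and 2 of 5 in HPC-1. In HSC Lin28b was at 2.87, 14.4, 20.0 and 21.4 CPM in deleted against 0.96, 0.61, 3.42 and 2.93 CPM in control libraries, so the groups overlapped. It had 943 counts in deleted against 103 in control HSC, with a log2 fold change of 2.87 ± 0.70 that edgeR did not call (unadjusted p = 0.00153; DESeq2 adjusted p = 0.0204). In HPC-1 it had 213 counts in deleted against 36 in control libraries. Of the 36, control library 1 held 33, against 20 in deleted HPC-1 library 1, so that litter 1 ran the other way there. Cdkn1c, a cell cycle inhibitor, was lower in control MPP, at 28.0 ± 5.94 CPM, than in control HSC, at 45.8 ± 9.23 CPM (SD, n = 4 each; log2 fold change -0.71 ± 0.20, edgeR adjusted p = 0.0416, kept in 2 of the 8 fits that left out 1 library). The cell cycle inhibitor gene Cdkn2a, a classic Bmi1 target, had 0 counts in deleted HSC against 10 in control HSC, 1 count in deleted MPP against 0 in control MPP, and 0 in both HPC-1 groups. The cardiac factor Gata4 had 0 counts in all 24 libraries.

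Correlations of log2 CPM over the 24 libraries, each population centred on its own 8, are given as descriptions, since libraries of a mouse and the depth are shared and genotype differences remain in them. The 45 pairs of the 10 genes had r between -0.765 and 0.804 with a median of 0.09, and in 17 pairs r was within 0.3 of 0. At the extremes, Ezh2 and Eed moved together (r = 0.804), as did Ring1 and Asxl1 (r = 0.778), whereas Ezh1 ran against Ezh2 (r = -0.765) and Eed (r = -0.721), and Ring1 ran against Rnf2 (r = -0.706). Bmi1 and Rnf2 had r = 0.623. Deleted MPP library 3, in which Ezh2, Eed and Suz12 were high and Ezh1, Ring1, Cbx7 and Asxl1 low, and the 2 libraries of deleted mouse 4 hold much of these deviations.

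The opposition of Ezh1 and Ezh2 was examined within each population over its 8 mice, 3 relations in all. This pair had the lowest r of the 45 pairs over these same libraries, so the p-values here are descriptions and not tests. In MPP Pearson's r was -0.828 (permutation p = 0.0160, adjusted 0.0481) and Spearman's rho -0.452 (permutation p = 0.268). Pearson's r was 0.02 without the 2 libraries farthest from the median, those of deleted mice 3 and 4, so that the relation rests on them. In HSC r was -0.733 (permutation p = 0.0419, adjusted 0.0628) with rho -0.452, and -0.273 without deleted libraries 3 and 4. In HPC-1 r was -0.547 (permutation p = 0.16) with rho -0.619, and -0.936 without control library 4 and deleted library 3. Within deleted and control libraries, Pearson's r was -0.87 and 0.57 in MPP, -0.95 and -0.16 in HSC, and -0.68 and -0.65 in HPC-1.

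**Figure D5:**
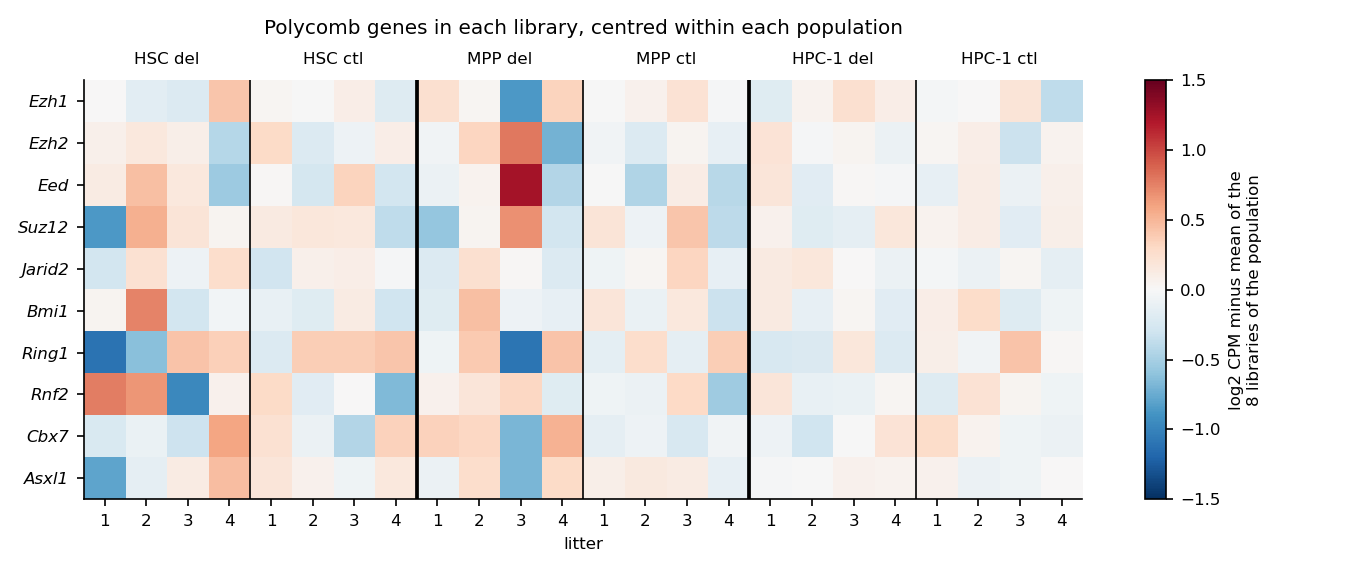
Log2 CPM of each gene (rows) in each library (columns, grouped by population and genotype, numbered by litter) minus the mean of the 8 libraries of its population, from -1.5 (blue) to 1.5 (red). Deleted MPP library 3 carries the strongest colours, with Eed, Ezh2 and Suz12 red and Ezh1, Ring1, Cbx7 and Asxl1 blue; HPC-1 columns are pale.

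The genes most like each of the 10, by the same centred correlation over 24 libraries among 12842 genes, were as follows. Ezh2 was most like Smc2, a condensin subunit (r = 0.913), Zzz3 (r = 0.881) and the histone chaperone Nasp (r = 0.879). Eed was most like Zc3h15 and the cohesin subunit Smc3, both at r = 0.949, and Ezh1 was most like Calcoco1 at r = 0.914. Asxl1 was most like the histone deacetylase Hdac5 (r = 0.899) and the DNA methyltransferase Dnmt3a (r = 0.885). Rnf2 was most like Clcn3 (r = 0.911), Ring1 like Pcnx3 (r = 0.899), Jarid2 like Apaf1 (r = 0.885), Cbx7 like Pi16 (r = 0.868), Bmi1 like Kpna3 (r = 0.835) and Suz12 like Clock (r = 0.796). The median r over all genes was within 0.04 of 0 for each of the 10.

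Some reads may not belong to the named gene alone. In the RefSeq annotation Ezh2 overlaps the non-coding gene F830010H11Rik and Cbx7 overlaps Apobec3. SMART-Seq libraries do not mark the strand, so reads of such partners in HSC and MPP cannot be told apart.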

How the data were processed

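Poly(A) RNA from 24 libraries was analysed. The authors' deposited whole-number counts per gene came from featureCounts after bcl2fastq, with mm10 as the build, according to the submitters' processing notes. Aligner, annotation, versions and strandedness are not given in the sources. The series table was identical to the 24 sample files. From these counts, edgeR 4.0.16 (R 4.3.3) was run with TMM scaling, the default low-count filter (10 per gene, 15 in total), the robust quasi-likelihood test and Benjamini-Hochberg adjustment over all genes tested, threshold 0.05. The script was tested on simulated data. CPM were computed on TMM-scaled totals. Standard errors (SE) are log2 fold changes divided by the square root of F. Subunit ratios used counts plus 0.5 and exact permutation, adjusted over 10 comparisons. Gene lengths are those of the deposited table.

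Alternatives were DESeq2 1.42.0, other size factors, no filter, a litter or mouse block, another pseudocount of 5 and leaving out each library. The titles give a replicate number, by which libraries were paired as a litter or a mouse. The main fits leave this pairing out and the block fits use it. Deviations of same-numbered libraries from group means had gene-wise correlations of 0.0033 to 0.064 (HSC), 0.031 to 0.18 (MPP) and 0.039 to 0.4 (HPC-1). Differently numbered libraries reached 0.074 (HSC), 0.14 (MPP) and 0.089 (HPC-1), so that the HSC libraries show no litter signal above that of other pairs. MPP and HSC of a mouse had 0.015 to 0.41 (deleted) and 0.18 to 0.37 (control), where other pairs reached 0.12 and 0.013. The 10 genes and all gene lists were chosen with earlier results of these data known. All 10 were named in every comparison; from the other Polycomb lists, genes past the threshold (up to 6 each way), or otherwise the 2 with the lowest unadjusted p, were named. One gene that this rule names in HPC-1 is not reported here.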

Additional observations from a re-analysis of the deposited data

Results flagged for a closer look

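Dixon's test for a library that stands apart from the other 3 of its group was applied to 72 groups, the 10 genes and 2 subunit ratios in each of the 6 groups, and 7 were past its 95% critical value of 0.829. Chance alone flags about 1 group in 20.

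In HSC, Ezh2 was low in deleted mouse 4, at 102 CPM. Suz12 was low in control mouse 4, at 53.3 CPM, and Ring1 in control mouse 1, at 10.6 CPM. Bmi1 was high in the MPP library of deleted mouse 2, at 223 CPM, and Ring1 was high in the HPC-1 library of deleted mouse 3, at 23.4 CPM. The log2 ratio of Cbx8 over Cbx7 was low in the HSC library of control mouse 1, at -2.39, and high in the HPC-1 library of control mouse 3, at -0.83. Causes of these values were not tested.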

How the results depend on the processing

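Over 1200 values of single-gene log2 fold changes of the 10 genes under all alternatives, 1093 kept their direction and side of the threshold, 2 gained a call, 5 lost one and 100 turned sign, none of them called in either fit. Of these, 92 came from leaving out 1 library, 10 of them deleted MPP library 3. The other 8 were Suz12 with a block (-0.036 for deletion in HSC, 0.018 for HPC-1 minus MPP), Cbx7 in HSC (0.0014 by DESeq2 and with its size factors) and Rnf2 in HPC-1 (0.0013 by DESeq2, 0.00096 with its size factors, 0.0011 without the filter, 0.00047 with the litter block). The genes that turned on leaving out 1 library had these ranges of log2 fold change. For deletion in HSC they ran from -0.10 to 0.14 for Ezh1, -0.12 to 0.067 for Ezh2, -0.021 to 0.27 for Eed, -0.17 to 0.24 for Suz12, -0.010 to 0.18 for Jarid2, -0.26 to 0.12 for Cbx7 and -0.31 to 0.10 for Asxl1. In MPP they ran from -0.19 to 0.15 for Ezh1, -0.31 to 0.14 for Suz12, -0.18 to 0.033 for Jarid2, -0.12 to 0.12 for Bmi1, -0.23 to 0.18 for Ring1 and -0.18 to 0.12 for Asxl1. In HPC-1 they ran from -0.021 to 0.11 for Ezh2, -0.053 to 0.064 for Eed, -0.11 to 0.015 for Suz12, -0.14 to 0.019 for Bmi1 and -0.068 to 0.076 for Rnf2. Between MPP and HSC of deleted mice they ran from -0.45 to 0.030 for Ezh2, -0.23 to 0.26 for Suz12, -0.057 to 0.36 for Bmi1, -0.12 to 0.35 for Rnf2 and -0.18 to 0.22 for Asxl1. In control mice they ran from -0.022 to 0.23 for Suz12, -0.0023 to 0.20 for Ring1 and -0.064 to 0.041 for Asxl1. For the effect in MPP minus that in HSC they ran from -0.24 to 0.085 for Ezh1, -0.087 to 0.59 for Eed, -0.34 to 0.16 for Suz12, -0.40 to 0.025 for Bmi1, -0.46 to 0.017 for Rnf2 and -0.14 to 0.24 for Asxl1. For HPC-1 minus HSC they ran from -0.048 to 0.21 for Ezh1, -0.26 to 0.045 for Eed, -0.26 to 0.15 for Suz12, -0.048 to 0.12 for Jarid2, -0.11 to 0.36 for Ring1, -0.18 to 0.17 for Cbx7 and -0.037 to 0.35 for Asxl1. For HPC-1 minus MPP they ran from -0.040 to 0.29 for Ezh1, -0.43 to 0.063 for Ezh2, -0.19 to 0.28 for Suz12, -0.19 to 0.044 for Bmi1 and -0.067 to 0.21 for Asxl1. With the mouse as a block the 10 genes held 3 calls between MPP and HSC of control mice, and the count over all genes was 2109; leaving out single libraries gave 0 to 1 and 832 to 1338. The litter block gave 0 genes in HSC and 60 in HPC-1 for deletion, and it changed no other count of the 10 genes. For deletion DESeq2 called 14 genes (HSC), 96 (MPP) and 68 (HPC-1), 843 between MPP and HSC of deleted mice, and 2, 11 and 7 for the interactions. Without the low-count filter HPC-1 had 20. Leaving out single libraries gave for deletion 0 to 1 genes (HSC), 2 to 22 (MPP) and 1 to 11 (HPC-1), the 22 without deleted MPP library 3, 54 to 208 between MPP and HSC of deleted mice, and 0 to 1 for HPC-1 against HSC effects. The log2 ratio of Ezh2 over Ezh1 ranged from -0.95 to -0.05 between MPP and HSC of deleted mice and from -0.92 to -0.76 in control mice on leaving out 1 library, and for deletion -0.21 to 0.18 (HSC), -0.19 to 0.71 (MPP) and -0.22 to 0.10 (HPC-1). Pairing all 8 mice gave -0.64 for Ezh2 over Ezh1 and 0.50 for Cbx8 over Cbx7, past an unadjusted 0.05. This pairing was chosen after the values were seen, and the Cbx8 value uses the deleted HSC libraries by which Cbx8 was singled out. The cause of these changes was not tested. With 4 mice a group, precision was limited by the spread between libraries, which was wider in HSC and MPP than in HPC-1.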
